A study of Rattus norvegicus with 16 samples.

Results

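The integrated stress response of rat liver was followed through 10 genes, the transcription factors Atf4, Atf3 and Ddit3, their targets Ppp1r15a, Trib3, Chac1, Asns and Sesn2, and the secreted hormones Gdf15 and Fgf21. They were chosen by name, as genes known to belong to this response, but with earlier results of these data known. All 10 were found among the 17055 gene symbols counted in each library. Male Sprague-Dawley rats aged 10 weeks were anesthetized with isoflurane or propofol, and had either a cecal ligation and puncture, which leaks gut bacteria into the abdomen (Sepsis), or a celiotomy in which the cecum was only handled (Control). Livers were collected after 8 h. The isoflurane rats were induced with isoflurane, and the propofol rats with ketamine and xylazine before propofol was given, so the anesthetic and the induction drugs cannot be told apart, and every control rat was also anesthetized, ventilated and operated on. Each library held the livers of 3 rats, which gave 4 libraries in each of 4 groups from 48 rats. By their label numbers, the Isoflurane-Sepsis libraries are 1 to 4, those of Isoflurane-Control 5 to 8, those of Propofol-Sepsis 9 to 12 and those of Propofol-Control 13 to 16. Errors and p-values thus describe how pools vary, not single rats.

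In the integrated stress response, 4 kinases sense different stresses (unfolded protein in the endoplasmic reticulum, amino acid shortage, double-stranded RNA and heme lack or mitochondrial damage) and phosphorylate the translation factor eIF2 on its alpha subunit. Most translation then slows, while the mRNA of the transcription factor ATF4 is translated more. ATF4 switches on ATF3, CHOP (the product of Ddit3) and genes of amino acid supply, and the product of Ppp1r15a, also called GADD34, brings a phosphatase back to eIF2 and ends the response. Much of the control of ATF4 is on translation, which counts of mRNA do not measure. The liver also sends the response into the blood, as FGF21, a fasting and stress hormone under the control of both PPARα and ATF4, and as GDF15, which acts on the hindbrain to reduce feeding.

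Between 14199422 and 49937173 reads were counted on genes in each library, and the lowest count of any member in any library was 39 reads, so all 10 members passed the limit on low counts in every comparison. Levels are given as CPM, the count per 1e+06 reads on genes after scaling with TMM factors, which adjust for the makeup of a library. These factors lay between 0.920 and 1.09, all below 1 in the isoflurane libraries and all above 1 in the propofol libraries. Summed over 8 hepatocyte markers, the level was between 111452 and 139082 CPM in the isoflurane libraries and between 92149 and 105562 in the propofol libraries, and none of these markers was at 0 in any library. In Isoflurane-Control against Propofol-Control 5 of the 8 were higher and 1 was lower, where 21.6% of all genes were higher and 21.7% lower. The 8 markers of neutrophils and monocytes summed to 57.3 to 64.7 CPM in Isoflurane-Control and to 54.5 to 81.4 in Propofol-Control. They summed to 181, 256, 425 and 491 CPM in libraries 1 to 4 of Isoflurane-Sepsis and to 124 to 195 in Propofol-Sepsis. 6 of the 7 tested rose in each sepsis comparison, and Mpo was at 0 in at least 1 library. Of 7 macrophage and Kupffer cell markers 5 rose and 1 fell with sepsis under isoflurane, and 1 rose and 1 fell under propofol. Of 5 endothelial markers 3 fell under isoflurane, and 2 fell and 1 rose under propofol. For these sepsis comparisons the shares over all genes were 25.7% rises and 24.4% falls under isoflurane, and 20.4% rises and 21.7% falls under propofol. The part of these cell types in the results on the members was not tested. Library 10, of Propofol-Sepsis, stood above the other 3 libraries of its group by Dixon's test in 5.14% of genes, against at most 1.45% in any other library, and no member was among them. In bulk tissue, fewer cells of a type and less RNA per cell cannot be told apart.

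The starts of 4 members are shown here, because they hold the letters through which ATF4 or CREB-type factors are known to act. ATF4 binds, with a C/EBP partner, a composite element whose core was searched as TGATGNAA on both strands, in windows from 250 bases before to 50 bases after the start of each gene (RefSeq, assembly GRCr8). This is a different build from rn5, which the submitters' processing notes name. A window was found for 9 of the 10 members, all but Atf3, which was not searched. The core was present in 3.98% of 33469 windows and in 3 of the 9 members. It lay 143 bases before the start of Fgf21 (chr1:105221327-105221626, minus strand), 167 before that of Chac1 (chr3:126795881-126796180, plus strand) and 21 before that of Trib3 (chr3:161275484-161275783, minus strand). The cyclic AMP response element TGACGTCA was present in 1.83% of windows and, among members, in Ppp1r15a (chr1:105139547-105139846, minus strand). The AP-1 site TGANTCA was present in 7.33% of windows and in Ddit3 and Ppp1r15a, and is not marked. The core and the cyclic AMP response element are in capitals, and each window runs 5′ to 3′ on the strand of its gene. The other members with a window had neither pattern in it.
Fgf21: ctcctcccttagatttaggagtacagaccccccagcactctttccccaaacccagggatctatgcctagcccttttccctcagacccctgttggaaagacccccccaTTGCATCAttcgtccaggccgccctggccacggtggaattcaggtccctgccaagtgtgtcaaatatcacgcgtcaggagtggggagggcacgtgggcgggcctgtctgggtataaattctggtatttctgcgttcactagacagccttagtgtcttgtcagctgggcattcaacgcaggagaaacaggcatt
Chac1: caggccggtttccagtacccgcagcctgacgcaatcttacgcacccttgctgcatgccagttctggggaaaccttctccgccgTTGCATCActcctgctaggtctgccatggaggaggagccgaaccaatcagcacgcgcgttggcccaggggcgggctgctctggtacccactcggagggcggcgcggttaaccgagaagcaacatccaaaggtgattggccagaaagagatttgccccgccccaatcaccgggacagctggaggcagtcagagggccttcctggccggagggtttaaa
Trib3: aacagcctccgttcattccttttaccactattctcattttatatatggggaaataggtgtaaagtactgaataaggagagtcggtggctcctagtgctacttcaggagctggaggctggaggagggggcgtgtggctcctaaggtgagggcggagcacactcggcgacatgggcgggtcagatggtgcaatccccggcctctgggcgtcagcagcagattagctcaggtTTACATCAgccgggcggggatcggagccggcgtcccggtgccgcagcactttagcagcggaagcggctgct
Ppp1r15a: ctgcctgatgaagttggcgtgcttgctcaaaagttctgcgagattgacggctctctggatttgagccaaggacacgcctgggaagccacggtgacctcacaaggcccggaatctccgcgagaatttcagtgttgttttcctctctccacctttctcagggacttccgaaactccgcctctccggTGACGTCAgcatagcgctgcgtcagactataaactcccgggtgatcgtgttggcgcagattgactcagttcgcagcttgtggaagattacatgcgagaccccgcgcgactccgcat
A match is a run of letters and was not tested as a site. Of the 3 genes with the core, Chac1 rose, Fgf21 fell and Trib3 did not pass the test when sepsis was compared with control under isoflurane.

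Sepsis was first compared with control within each anesthetic, to ask how the liver responded to it. Under isoflurane 7 of the 10 members rose (Atf4, Atf3, Ddit3, Ppp1r15a, Chac1, Sesn2 and Gdf15), Fgf21 fell, and Trib3 and Asns did not pass the test. Under propofol Atf3 and Ppp1r15a rose, Trib3 and Fgf21 fell, and the other 6 did not pass. Fgf21, the hormone of fasting, fell under both anesthetics, with log2 fold changes of -2.66 and -3.42. The test was edgeR's quasi-likelihood test, with p adjusted over all genes and a call at an adjusted p below 0.05. Of all 10361 genes tested under isoflurane, 50.0% passed, 25.7% as rises and 24.4% as falls. Under propofol 42.1% of 10348 passed, 20.4% as rises and 21.7% as falls. The median log2 fold change of the members was 1.03 under isoflurane, where that of all genes was 0.01, and -0.10 under propofol.

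**Figure D1:**
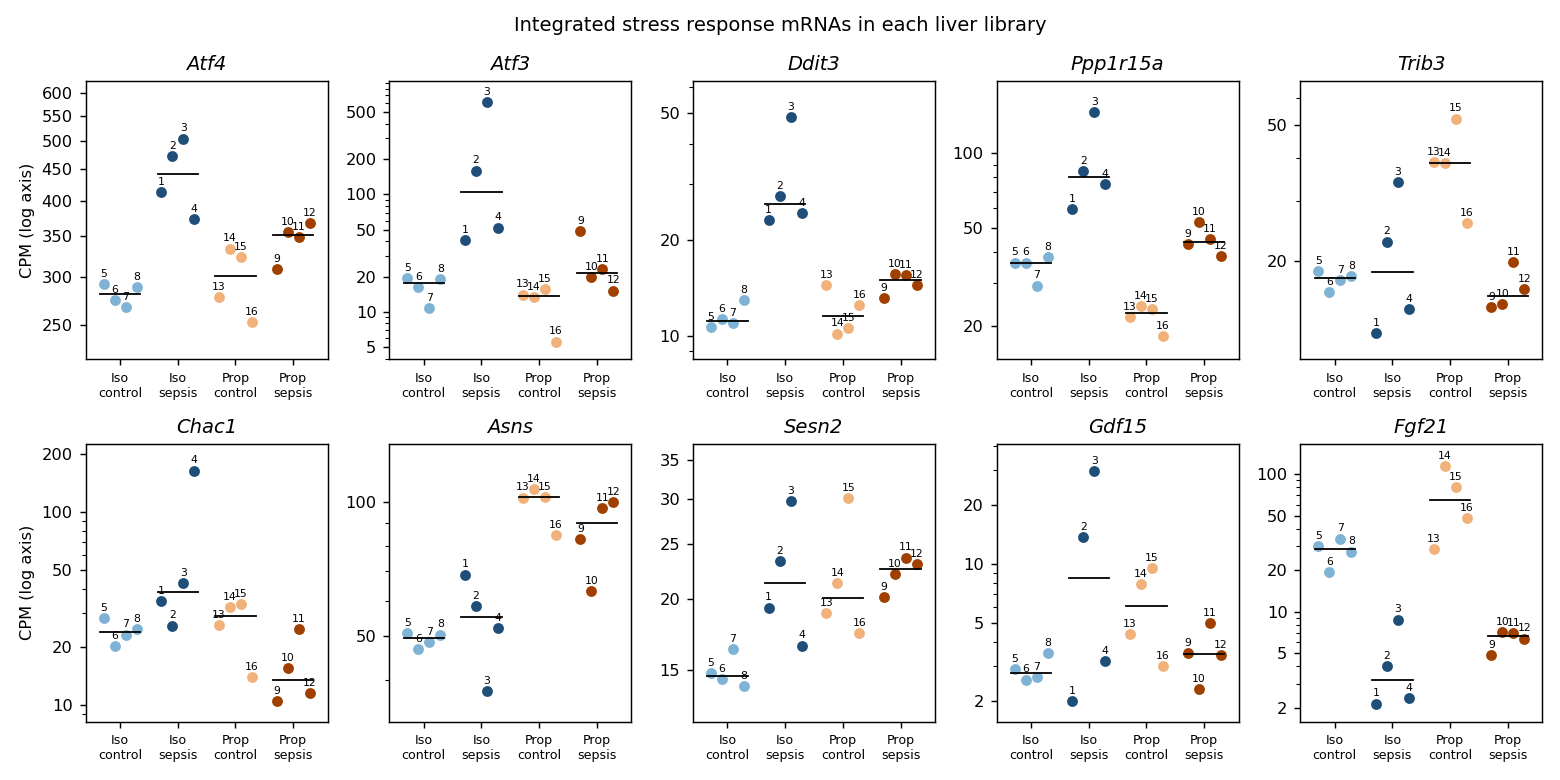
CPM of each of the 10 members in each of the 16 libraries, on log axes that differ between panels. Each point is a library with its number, and the bar is the median of the group of 4. Fgf21 is below its controls in all 8 sepsis libraries, and library 3 is the highest of Isoflurane-Sepsis in 8 of the 10 panels.

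Atf4 encodes the central transcription factor of the response. Its level was 413, 473, 505 and 374 CPM in libraries 1 to 4 of Isoflurane-Sepsis, and 292, 275, 268 and 289 CPM in the 4 Isoflurane-Control libraries. Every septic pool lay above every control pool, as did 24.3% of all genes tested in this comparison. The log2 fold change was 0.66 (SE 0.106, adjusted p = 0.00127). Under propofol the levels were 309, 355, 349 and 368 CPM in sepsis and 278, 334, 323 and 253 CPM in the controls. These groups overlapped, and the log2 fold change of 0.21 (SE 0.0968) did not pass, with an adjusted p of 0.106.

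Atf3, an immediate stress-response factor that ATF4 and other pathways induce, had the largest fold change among the members under isoflurane, with a wide spread between pools. It was counted at 41.2, 159, 610 and 52.3 CPM in Isoflurane-Sepsis, against 19.4, 16.3, 10.8 and 18.9 CPM in the controls. Each septic pool was above each control pool, but library 3 was 14.8 times library 1. The log2 fold change was 3.74 (SE 0.848, adjusted p = 0.00633), and it was 2.36 (adjusted p = 0.00429) without library 3. Under propofol Atf3 was at 48.8, 19.9, 22.98 and 15.1 CPM in sepsis and 14.03, 13.5, 15.6 and 5.57 CPM in the controls, and the lowest septic pool lay within the range of the controls. The log2 fold change of 1.12 (SE 0.394) passed with an adjusted p of 0.0434. Without library 9 it was 0.66, with an adjusted p of 0.112. The call was also lost when library 11, 13, 14, 15 or 16 was left out, with adjusted p up to 0.0901, and by limma-voom (adjusted p = 0.0626). In edgeR it was lost with library totals alone (adjusted p = 0.0529), with no filter on low counts (0.0555) and with all 16 libraries in 1 fit (0.207).

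Ddit3 encodes CHOP, a factor tied to cell death under lasting stress. In Isoflurane-Sepsis it was at 23.1, 27.4, 48.4 and 24.2 CPM, and in Isoflurane-Control at 10.7, 11.3, 10.96 and 12.96 CPM. The pools did not overlap, and the change was 1.43 (SE 0.239, adjusted p = 0.00148). In Propofol-Sepsis it was at 13.2, 15.7, 15.6 and 14.4 CPM, and in Propofol-Control at 14.4, 10.2, 10.6 and 12.5 CPM. There the difference was 0.30 (SE 0.117) with an adjusted p of 0.0636, and it passed without library 13, at 0.40 with an adjusted p of 0.0177. In the RefSeq table Ddit3 overlaps Mars1, which is counted in the files as Mars. The level of Mars was 126 ± 4.39 CPM (SD, n = 4) in Isoflurane-Control and 123 ± 6.49 in Isoflurane-Sepsis, and it was 117 CPM in library 3, where Ddit3 was highest. Under propofol Mars was higher and lower in sepsis than in control, at 181 ± 8.29 CPM in Propofol-Control and 148 ± 11.3 in Propofol-Sepsis. Its part in the Ddit3 values was not tested. The strand setting of the counting was not stated in the sources read, so reads of overlapping genes cannot be told apart. Atf3 overlaps Garin4 (Fam71a in the counts), which had 27 reads (1.52 CPM) in library 9, 1 read in library 12 and 0 in every other library. Library 9 is also the Propofol-Sepsis pool with the highest Atf3, and whether reads were shared was not tested. The genes that overlap Gdf15 (Lrrc25) and Sesn2 (a long noncoding RNA) were not analysed here.

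Ppp1r15a, the phosphatase subunit that ends the response, rose under both anesthetics. It was at 59.3, 84.6, 147 and 75.2 CPM in Isoflurane-Sepsis and at 36.1, 36.1, 29.2 and 38.1 CPM in Isoflurane-Control. It was at 42.8, 52.8, 45.1 and 38.3 CPM in Propofol-Sepsis and at 21.8, 24.05, 23.4 and 18.2 CPM in Propofol-Control. In neither comparison did the groups overlap, as was the case, with sepsis higher, for 21.1% of genes under propofol. The log2 fold changes were 1.40 (SE 0.261, adjusted p = 0.00251) under isoflurane and 1.03 (SE 0.116, adjusted p = 0.000168) under propofol. This is the one member that rose in both and kept both calls when any single library was left out.

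Trib3 encodes a pseudokinase that ATF4 and CHOP induce and that dampens ATF4 in turn. In Isoflurane-Sepsis it was at 12.3, 22.8, 34.2 and 14.4 CPM, on both sides of the controls at 18.7, 16.2, 17.6 and 18.1 CPM. The difference of 0.26 on the log2 scale (SE 0.290) did not pass (adjusted p = 0.487), and without library 3 it was -0.11. In Propofol-Sepsis it was at 14.6, 14.9, 19.8 and 16.6 CPM, below every one of the controls at 39.0, 38.8, 52.3 and 25.8 CPM. The fall was 1.25 on the log2 scale (log2 fold change -1.25, SE 0.189, adjusted p = 0.000758). The control pools of the anesthetics lay apart, at 39.0 ± 10.8 CPM (SD, n = 4) under propofol and 17.7 ± 1.05 under isoflurane, while the septic pools were at 16.5 ± 2.38 and 20.9 ± 9.92.

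Chac1 encodes an enzyme that breaks down glutathione and is a target of ATF4 and CHOP. It was at 34.4, 25.8, 42.8 and 164 CPM in Isoflurane-Sepsis and at 28.1, 20.2, 23.2 and 24.8 CPM in Isoflurane-Control. Library 4 was far above the others, and library 2 lay within the range of the controls. The rise of 1.47 on the log2 scale (SE 0.534) passed with an adjusted p of 0.0456. It was 0.52 (adjusted p = 0.0377) without library 4, and the call was lost without library 5, 6, 7 or 8, with adjusted p between 0.0799 and 0.105. It was also lost by limma-voom (1.06, adjusted p = 0.105). Under propofol it was at 10.4, 15.6, 24.7 and 11.6 CPM in sepsis and 25.9, 32.3, 33.5 and 13.97 CPM in the controls, and the groups overlapped. Its log2 fold change of -0.77 (SE 0.315) did not pass (adjusted p = 0.0739), but a fall passed without library 11 (-1.08, adjusted p = 0.0163) or library 16 (-0.98, adjusted p = 0.0195).

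Asns, asparagine synthetase, is a classical target of ATF4 in amino acid shortage. It was at 68.9, 58.5, 37.7 and 52.2 CPM in Isoflurane-Sepsis and 50.8, 46.8, 48.6 and 50.5 CPM in Isoflurane-Control. Library 3, the highest septic pool for most members, was here the lowest of all 8. On the log2 scale the difference was 0.14 (SE 0.149, adjusted p = 0.452), and without library 3 a rise of 0.28 passed with an adjusted p of 0.0398. Under propofol it was at 82.7, 63.3, 97.1 and 100.1 CPM in sepsis and 103, 107, 103 and 84.5 CPM in the controls. This difference of -0.21 (SE 0.138) did not pass either (adjusted p = 0.235).

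Sesn2, a sestrin that restrains mTORC1 when amino acids are short, rose moderately under isoflurane. It was at 19.3, 23.3, 29.7 and 16.6 CPM in Isoflurane-Sepsis and at 14.8, 14.5, 16.3 and 14.04 CPM in Isoflurane-Control, without overlap. A log2 fold change of 0.58 (SE 0.173) passed with an adjusted p of 0.0207. The call was lost without library 5, 6 or 8, with adjusted p of 0.0507, 0.0528 and 0.0591. Under propofol the septic pools, at 20.2, 22.1, 23.6 and 23.05 CPM, lay within the range of the controls at 18.9, 21.3, 30.04 and 17.4 CPM, and the log2 fold change was 0.01 (SE 0.152, adjusted p = 0.949).

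Gdf15 was low in most libraries and high in a pair of them. In Isoflurane-Sepsis it was at 2.00, 13.7, 29.8 and 3.20 CPM, which came from 40, 212, 575 and 53 reads. The controls were at 2.92, 2.57, 2.65 and 3.50 CPM, so libraries 1 and 4 were not above them and libraries 2 and 3 were. A log2 fold change of 2.07 (SE 0.743) passed with an adjusted p of 0.0437. Without library 3 it was 1.07 (adjusted p = 0.160) and without library 2 it was 2.01 (adjusted p = 0.0802), and the call was also lost without any 1 of the 4 controls, with adjusted p between 0.0830 and 0.0978. By limma-voom the value was 1.23 (adjusted p = 0.246), which did not pass, nor did edgeR once every library was thinned to equal depth (adjusted p = 0.0512). In Propofol-Sepsis it was at 3.50, 2.29, 4.97 and 3.44 CPM, and in Propofol-Control at 4.38, 7.86, 9.52 and 3.02 CPM. Here the difference was -0.81 (SE 0.355, adjusted p = 0.0904), and a fall of 1.04 (log2 fold change -1.04) passed without library 16, with an adjusted p of 0.0271.

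Fgf21 was the member that fell under both anesthetics. It was at 2.15, 4.00, 8.75 and 2.36 CPM in Isoflurane-Sepsis, against 30.1, 19.4, 34.0 and 27.3 CPM in Isoflurane-Control. It was at 4.801, 7.12, 7.00 and 6.35 CPM in Propofol-Sepsis, against 28.5, 114, 80.7 and 47.9 CPM in Propofol-Control. Every septic pool lay below every control pool under both anesthetics, as did 24.4% of genes under isoflurane and 21.1% under propofol. The levels fell 6.34-fold under isoflurane (log2 fold change -2.66, SE 0.415, adjusted p = 0.00103) and 10.7-fold under propofol (-3.42, SE 0.396, adjusted p = 0.000197). Both calls were kept when any single library was left out, and without library 3 the isoflurane value was -3.31.

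**Figure D2:**
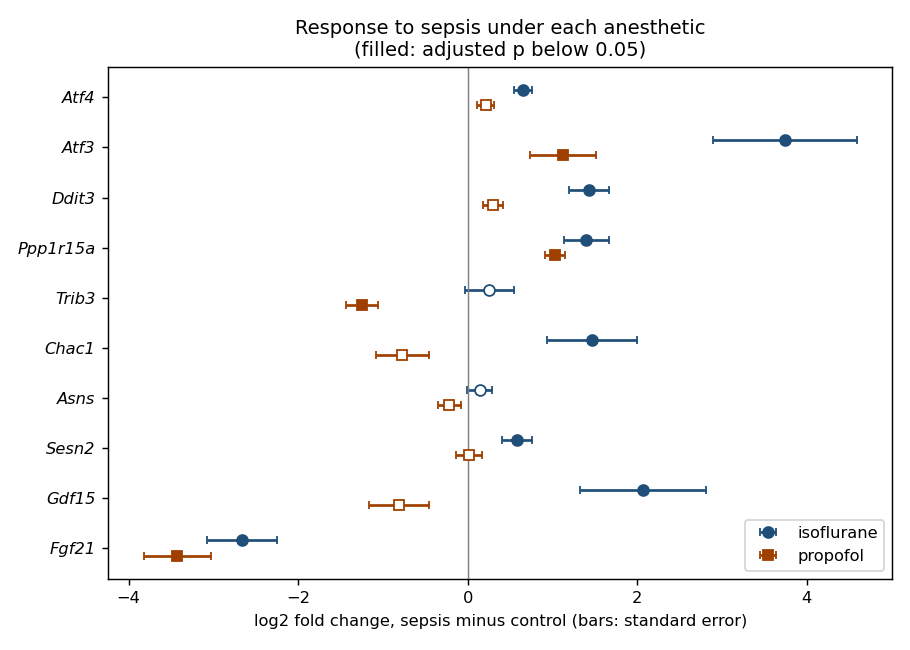
Log2 fold change of each member, sepsis minus control, in the isoflurane comparison (circles) and the propofol comparison (squares), each of 4 libraries against 4. Bars are standard errors from edgeR, filled symbols passed at an adjusted p below 0.05, and every isoflurane value lies to the right of its propofol value.

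Whether sepsis acted differently under the anesthetics was asked with the interaction term of 1 fit over the 16 libraries, signed isoflurane minus propofol. Ddit3 and Trib3 passed, with differences of 1.11 (SE 0.274, adjusted p = 0.0445) and 1.49 (SE 0.366, adjusted p = 0.0448) on the log2 scale, so both responses were more positive under isoflurane. These are 2 of 10 members, where 1.66% of 10621 genes passed in this direction and 2.72% in either. The value was positive for all 10 members, with a median of 0.93, and the unadjusted p was below 0.05 for 7 of them. Of all 10621 genes the value was positive in 48.1%, and the unadjusted p was below 0.05 in 23.1%, or in 12.2% with a positive value. The largest values were those of Gdf15 at 2.86 (SE 0.884, adjusted p = 0.0808), Atf3 at 2.59 (SE 0.961, adjusted p = 0.128) and Chac1 at 2.23 (SE 0.680, adjusted p = 0.0781), and none of these passed. Atf4 at 0.43 (SE 0.145, adjusted p = 0.0982) did not pass either. For Fgf21 the difference was 0.74 (SE 0.594, adjusted p = 0.453) and for Ppp1r15a it was 0.36 (SE 0.296, adjusted p = 0.472). The 2 calls depended on the tool and on single libraries. DESeq2 called 4 members, adding Chac1 and Gdf15, while limma-voom called 0. In voom the adjusted p of Ddit3 was 0.0678 and that of Trib3 was 0.0662. Leaving out single libraries gave between 0 and 6 calls, with 6 without library 1, which has the lowest Atf3, Ddit3, Gdf15 and Fgf21 of the Isoflurane-Sepsis group.

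Agreement between members was read across the 4 Isoflurane-Sepsis pools. Library 3 was the highest of the 4 for 8 members, all but Chac1 and Asns, and library 2 was the second highest for 9, all but Chac1. Library 1 was the lowest for 6 members (Atf3, Ddit3, Trib3, Gdf15, Fgf21 and Ppp1r15a) and library 4 for Atf4 and Sesn2. Over all 10621 genes library 3 was the highest of the 4 in 23.8%. Averaged over the members, the log2 level relative to the mean of the group was 0.79 in library 3, 0.10 in library 2, -0.28 in library 4 and -0.61 in library 1. Fgf21 kept this order although it was below its controls in all 4 pools: it fell least, by 1.63, in library 3 (log2 difference -1.63) and most in library 1 (-3.66). Atf3, Ddit3, Gdf15 and Ppp1r15a, which rose, had the same full order as Fgf21, which fell. Atf4 and Sesn2, which also rose, had library 4 below library 1. Chac1, which rose as well, had library 4 highest and library 2 lowest.

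The spread within Isoflurane-Sepsis differed widely between members. The highest pool was 14.9 times the lowest for Gdf15, 14.8 times for Atf3, 6.36 times for Chac1 and 4.08 times for Fgf21, but 1.35 times for Atf4. Relative to the mean of the controls, the log2 values of Gdf15 were -0.53, 2.24, 3.37 and 0.15 (in the order of libraries 1, 2, 3 and 4), and those of Atf3 were 1.37, 3.32, 5.26 and 1.71. Chac1 followed another order, at 0.52, 0.11, 0.84 and 2.78. The sum of the neutrophil and monocyte markers was highest in library 4 and then in libraries 3, 2 and 1. Library 3 was the highest for 8 members and library 4 for Chac1, and library 1 was the lowest for 6 members. Whether these cells had a part in the order of the members was not tested. Kendall's W, which is 1 when all members rank the pools alike and 0 when they share no order, was 0.472 over the 10 members. It was 0.508 in Propofol-Control, 0.308 in Isoflurane-Control and 0.26 in Propofol-Sepsis. Shared order was therefore no higher in Isoflurane-Sepsis than in Propofol-Control, where library 16 was the lowest for 8 members and library 15 the highest for 5. The members share each library, and these values are a description of the pools.

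**Figure D3:**
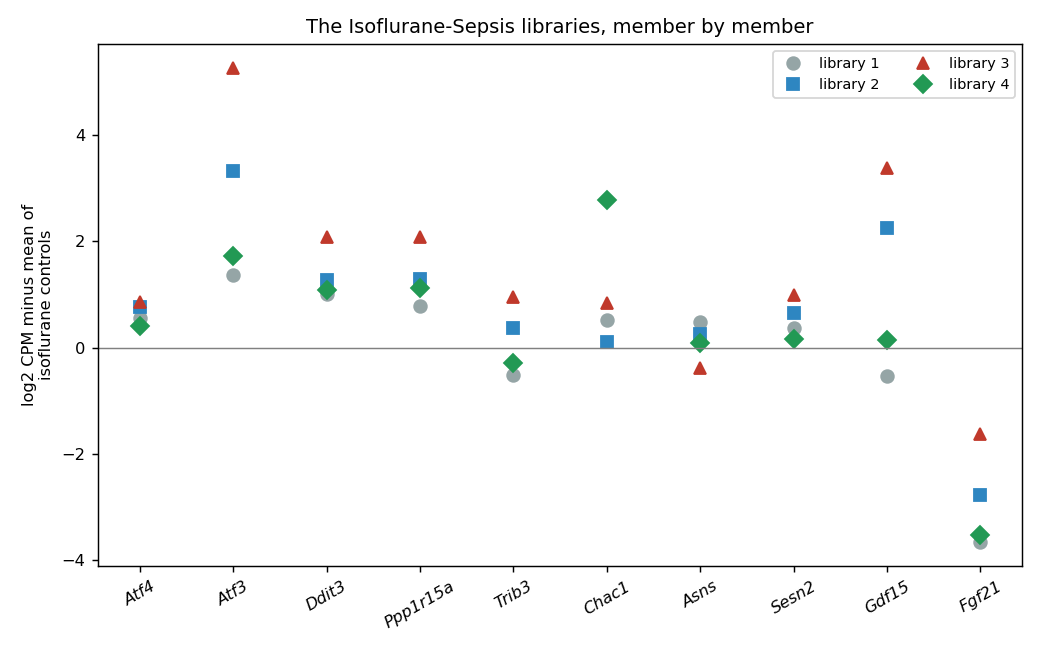
Log2 CPM of each member in each of the 4 Isoflurane-Sepsis libraries, minus the mean of the 4 Isoflurane-Control libraries, with 0 at the control level. Library 3 is the topmost for 8 members, Chac1 is topmost in library 4, and all 4 libraries are below 0 for Fgf21.

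The members also differed between the anesthetics without sepsis. In Isoflurane-Control against Propofol-Control, Ppp1r15a was higher (log2 fold change 0.68, SE 0.100, adjusted p = 0.000408), and 5 members were lower under isoflurane, where 43.3% of all 10314 genes passed, 21.6% as higher and 21.7% as lower. The lower ones were Asns (-1.01, SE 0.0725, adjusted p = 7.29e-06), Trib3 (-1.14, SE 0.167, adjusted p = 0.000401), Sesn2 (-0.56, SE 0.148, adjusted p = 0.0107), Fgf21 (-1.29, SE 0.344, adjusted p = 0.0118) and Gdf15 (-1.06, SE 0.307, adjusted p = 0.0167). In levels, Asns was at 49.2 ± 1.83 CPM (SD, n = 4) in Isoflurane-Control and 99.2 ± 10.0 in Propofol-Control. Asns, Trib3 and Sesn2 did not overlap between the controls, as 20.0% of genes did not in this direction, and Ppp1r15a was above in every pool, as were 20.4% of genes. Fgf21 was at 27.7 ± 6.18 against 67.7 ± 37.4 CPM and Gdf15 at 2.91 ± 0.420 against 6.196 ± 3.01, and for both the groups overlapped. Atf4, Atf3, Ddit3 and Chac1 did not pass, with log2 fold changes of -0.08, 0.44, -0.04 and -0.13. With library totals alone in place of TMM, the median of all genes in this comparison was -0.15. No member changed direction, but Atf4, at -0.23, then passed (adjusted p = 0.0398). The call of Gdf15 was lost when all 16 libraries shared 1 fit (adjusted p = 0.226).

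Between the septic groups, 4 members were higher under isoflurane and Asns was lower, where 19.3% of 10272 genes passed, 10.6% as higher and 8.66% as lower. The higher ones were Atf3 (3.02, SE 0.861, adjusted p = 0.0407), Chac1 (2.10, SE 0.594, adjusted p = 0.0400), Ddit3 (1.06, SE 0.229, adjusted p = 0.0199) and Ppp1r15a (1.03, SE 0.256, adjusted p = 0.0283). Asns was at -0.66 (SE 0.199, adjusted p = 0.0465). Atf4 did not pass (0.35, SE 0.111, adjusted p = 0.0543), and Gdf15 was at 1.78 (SE 0.749, adjusted p = 0.114). Fgf21, at 4.31 ± 3.07 CPM (SD, n = 4) in Isoflurane-Sepsis and 6.32 ± 1.07 in Propofol-Sepsis, did not pass either (-0.55, adjusted p = 0.353). Each of these 5 calls was lost when 1 or another single library was left out, and Atf3 was at 1.66 (adjusted p = 0.0884) without library 3. The files of the isoflurane and the propofol libraries carry different set names, so the anesthetic and the set cannot be told apart in these 2 comparisons.

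Upstream of the members, the mRNAs of the 4 kinases of eIF2 moved in different directions. Eif2ak3 encodes PERK, the kinase of the endoplasmic reticulum, and it rose under both anesthetics, from 46.0 ± 0.978 to 83.1 ± 10.96 CPM (SD, n = 4) under isoflurane (log2 fold change 0.86, adjusted p = 0.00029) and from 29.6 ± 1.15 to 48.6 ± 3.21 CPM under propofol (0.71, adjusted p = 6.76e-05). Eif2ak4 encodes GCN2, which senses uncharged tRNA, and it fell by 0.51 (-0.51, adjusted p = 0.00199) and 0.60 (-0.60, adjusted p = 0.00122). Eif2ak2, the kinase of double-stranded RNA, passed under propofol (0.30, adjusted p = 0.0162) and not under isoflurane (0.12, adjusted p = 0.439). Eif2ak1, the heme-regulated kinase, was at 0.01 (adjusted p = 0.872) and -0.07 (adjusted p = 0.389). The response of Eif2ak3 differed between the anesthetics by 0.14 (adjusted p = 0.474 in the interaction), which did not pass. Among 14 tested genes of eIF2, its exchange factor and phosphatase partners, 4 rose and 2 fell under isoflurane and 3 rose and 1 fell under propofol. The shares over all genes were 25.7% rises and 24.4% falls under isoflurane, and 20.4% rises and 21.7% falls under propofol. Nck1, an adaptor listed with these partners, rose in both, by 0.54 and 0.34.

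Of 10 tested partner transcription factors of ATF4 and CHOP, 6 rose and 1 fell under isoflurane with a median of 1.27, and 3 rose and 2 fell under propofol with a median of 0.12. Among all genes 25.7% rose and 24.4% fell under isoflurane, and 20.4% rose and 21.7% fell under propofol. Cebpd, an acute-phase C/EBP factor, rose from 13.9 ± 2.49 to 41.8 ± 3.12 CPM under isoflurane (1.59, adjusted p = 6.71e-05) and from 13.1 ± 2.50 to 49.7 ± 20.4 under propofol (1.93, adjusted p = 0.000658). Atf5, a relative of Atf4 that is also controlled on translation, fell under both, from 501 ± 35.8 to 279 ± 29.0 CPM (-0.84) and from 586 ± 57.0 to 369 ± 40.8 CPM (-0.67). Cebpg, a dimer partner of ATF4, rose under isoflurane (0.67, adjusted p = 0.00455) and was at 0.11 under propofol (adjusted p = 0.233), and the difference itself did not pass (0.56, adjusted p = 0.0662). The 2 factors that passed the interaction were Cebpa (1.22, adjusted p = 0.0366) and Nfe2l2 (0.79, adjusted p = 0.0249), where 2.72% of all genes passed. With single libraries left out this count was between 0 and 5, and it was 0 without library 6, 7, 8 or 12.

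Amino acid supply, the classical output of ATF4, did not move as a block. Of 21 tested genes, 7 rose and 4 fell under isoflurane with a median of 0.08, and 5 rose and 4 fell under propofol with a median of -0.15. Over all genes 25.7% rose and 24.4% fell under isoflurane, and 20.4% rose and 21.7% fell under propofol. The falls numbered 2 to 7 under isoflurane (2 without library 3, 5, 6 or 8 and 7 without library 1) and 1 to 5 under propofol (1 without library 14) when single libraries were left out. Slc38a2, which carries small neutral amino acids, rose by 1.31 (adjusted p = 0.000129) and 1.35 (adjusted p = 0.000378), and Slc1a5, which carries glutamine, by 2.15 and 1.26. Of 12 tested aminoacyl-tRNA synthetases, which load amino acids on tRNA, 2 rose and 2 fell under isoflurane and 1 rose and 5 fell under propofol. Wars, the tryptophan enzyme, which interferon also induces, rose in both (0.73 and 1.28), and Eprs fell in both (-0.87 and -0.41). Got1, an aminotransferase, rose under propofol from 158 ± 46.3 to 699 ± 193 CPM (2.14, adjusted p = 0.000187) and was at 0.08 under isoflurane (adjusted p = 0.763), and this difference passed (-2.08, adjusted p = 0.0106). In the controls 14 of the 21 supply genes and 10 of the 12 synthetases were lower under isoflurane than under propofol, where 21.7% of all genes were lower.

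The other branches of the unfolded protein response, those of ATF6 and XBP1, gave rises and no fall. Of 18 tested genes 7 rose and 0 fell under isoflurane (median 0.29), and 15 rose and 0 fell under propofol (median 0.41). The isoflurane count was between 3 and 13 when single libraries were left out, and the propofol count between 13 and 15. Rises made up 25.7% of all genes under isoflurane and 20.4% under propofol. In the interaction 0 of the 18 passed, and 0 passed between the septic groups. Without sepsis, 11 of the 18 were higher and 0 lower in Isoflurane-Control than in Propofol-Control, where 21.6% of all genes were higher. Hspa5, the chaperone BiP, rose by 0.39 (adjusted p = 0.0286) under isoflurane and 0.48 (adjusted p = 0.000251) under propofol, with an interaction of -0.10 (adjusted p = 0.712) that did not pass. In the mitochondrial stress response, 3 of 8 tested genes fell under each anesthetic, where 24.4% of all genes fell under isoflurane and 21.7% under propofol. Among them were Dnaja3 (-0.64 and -0.39), Trap1 (-0.47 and -0.40) and Oma1 (-0.46 and -0.52), the protease that relays mitochondrial stress to eIF2. Hspe1, a mitochondrial chaperonin, rose under propofol (0.42).

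**Figure D4:**
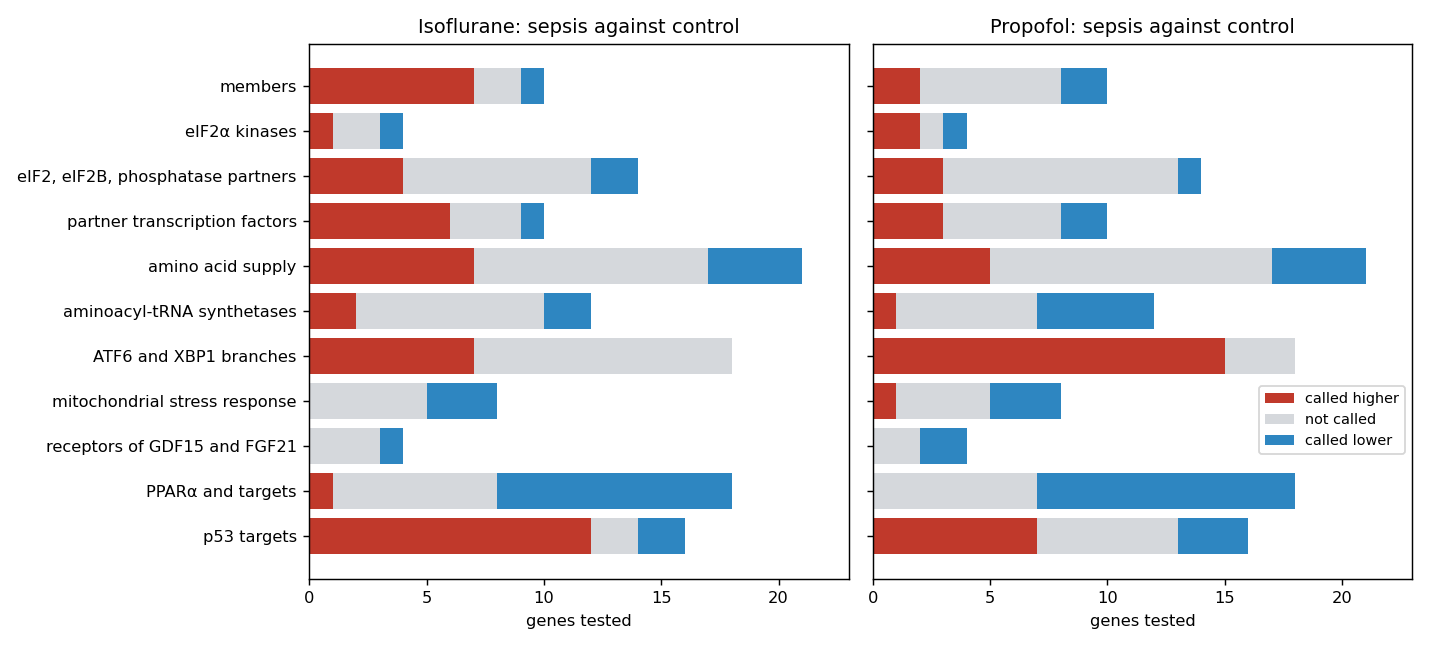
Number of tested genes in the member set and in each of 10 related lists that were called higher, not called or called lower when sepsis was compared with control, at an adjusted p below 0.05 by edgeR. Of the 18 genes of the ATF6 and XBP1 branches 15 are called higher under propofol, and of the 18 of PPARα 10 and 11 are called lower.

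PPARα, the fasting regulator named above for Fgf21, was followed with its targets. Of 18 tested genes of this list 10 fell and 1 rose under isoflurane (median -0.57) and 11 fell and 0 rose under propofol (median -0.50). All genes together gave 24.4% falls and 25.7% rises under isoflurane, and 21.7% falls and 20.4% rises under propofol. Cpt1a, the gatekeeper of fatty acid oxidation, fell from 409 ± 36.0 to 47.5 ± 8.87 CPM under isoflurane (-3.10, adjusted p = 1.01e-05) and from 428 ± 163 to 137 ± 21.2 under propofol (-1.65, adjusted p = 0.000694), a larger fall under isoflurane by the interaction (-1.46, adjusted p = 0.0268), a call that was lost without library 6, 7, 8 or 12. Of 7 listed genes of the receptors through which FGF21 and GDF15 act, 6 were counted and 4 could be tested. Of these 4, 1 fell under isoflurane and 2 fell under propofol, and 0 rose under either. Falls made up 24.4% of all genes under isoflurane and 21.7% under propofol. Fgfr3 fell in both (-0.78 and -0.71) and Fgfr4 fell under propofol (-0.35), while Fgfr1 and Fgfr2 did not pass. Gfral, the receptor of GDF15, had 1 read in all 16 libraries together, and its partner Ret between 9 and 58 reads per group.

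Genes of the p53 response, which share Gdf15 and Sesn2 as targets with ATF4, were counted for comparison. Of 16 tested, 12 rose and 2 fell under isoflurane (median 1.06), and 7 rose and 3 fell under propofol (median 0.22). For all genes the shares were 25.7% rises and 24.4% falls under isoflurane, and 20.4% rises and 21.7% falls under propofol. Cdkn1a, the cell cycle inhibitor p21, rose by 2.19 (adjusted p = 0.0018) and 1.47 (adjusted p = 0.000403). In the interaction 5 of the 16 passed and all 5 were more positive under isoflurane, as were 1.66% of all genes. They were Plk2 (1.99), Phlda3 (1.36), Mdm2 (0.82), Aen (0.77) and Ccng1 (0.61), with adjusted p between 0.0249 and 0.0473. The count was 2 by limma-voom, 3 with no filter, and 0 to 6 with single libraries left out (0 without library 6, 7, 8 or 12 and 6 without library 1).

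The genes whose levels followed Gdf15, Fgf21 and Atf4 most closely were found among 8892 genes by the root mean square difference of centred log2 CPM over the 16 libraries. For Gdf15 they were Gadd45a (0.462), Rnd3 (0.504) and Rnf144b (0.552), where the median over all candidates was 1.06. Gadd45a, a stress gene of growth arrest, was at 70.5, 128, 450 and 42.2 CPM in Isoflurane-Sepsis, so that libraries 3 and 2 were again the highest. For Fgf21 they were Rhobtb1 (0.632), Akr1c14 (0.650) and Adra1b (0.705), against a median of 1.71, and for Atf4 they were Atf1 (0.0822), Gsto1 (0.115) and RGD1359310 (0.118), against 0.386. The measure depends on the size of a pattern, so values for different genes are not on 1 scale.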

How the data were processed

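Polyadenylated liver RNA was sequenced with a strand-preserving kit in 16 libraries, each a pool of 3 rats. The authors deposited, for each library, the whole-number count of reads on 17055 gene symbols, without normalization. The submitters' processing notes name STAR and the build rn5. The counting program, its strand setting and the annotation: not given in the sources used here. Entries for reads on no gene (21.6% to 25.4% of reads) and for ambiguous reads (1.07% to 1.35%) entered neither library sizes nor tests.

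Groups came from the sample labels. Counts were tested in R 4.3.3 by edgeR 4.0.16 (glmQLFit and glmQLFTest), with TMM scaling, filterByExpr (minimum count 10, minimum total 15) and Benjamini-Hochberg adjustment over all genes tested. Each pair of groups was fitted alone and the interaction in all 16 libraries. Members and lists were chosen with earlier results of these data known. All members are named. In each list the genes named are among the 4 with the smallest adjusted p in a sepsis comparison, with all kinases and receptors and the 3 genes most like Gdf15, Fgf21 and Atf4. Genes named for the interaction and Mars were chosen after their values were seen. Adjusted p measures the spread between pools. Chi-square per degree of freedom between libraries of a group was 3.35 to 96.3, so none looked like a repeat of another. Alternatives were RLE factors, library totals, DESeq2 1.42.0, limma-voom 3.58.1, no filter, a mean CPM of at least 1, thinned counts, 1 fit of all 16 libraries, and each library left out. The fit was tested on simulated data.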

Additional observations from a re-analysis of the deposited data

Results flagged for a closer look

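Within groups of 4 libraries, the gap of the highest or lowest library to its nearest neighbour, divided by the range of the group, was set against Dixon's 95% critical value for 4 samples. Chance passes it in about 1 in 20 groups, and 2 of the 40 groups of member values (5%) passed. Both were in Isoflurane-Sepsis, so 2 of the 10 members passed there, as did 4.54% of all genes. Of all genes, 5.8% passed in Isoflurane-Control, 9.06% in Propofol-Sepsis and 4.78% in Propofol-Control, and no member passed in these groups. Ddit3 passed in Isoflurane-Sepsis, with library 3 highest and a gap of 0.83 of the range. Chac1 passed in the same group, with library 4 highest and a gap of 0.876.

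The response to sepsis differed between the anesthetics by the interaction test for Ddit3, by 1.11 on the log2 scale, and for Trib3, by 1.49, isoflurane minus propofol. Chac1 was above the mean of its controls in all 4 Isoflurane-Sepsis libraries and below it in all 4 Propofol-Sepsis libraries. Library 2, at a log2 difference of 0.11, and library 11, at -0.014, were close to that mean and within the range of their controls. How many of all genes show this pattern was not counted. The interaction of Chac1 was 2.23, with an adjusted p of 0.0781 by edgeR, which did not pass.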

How the results depend on the processing

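No paired analysis was possible because the 4 groups share no replicate numbers in the labels. Of the alternatives for the members' log2 fold changes, 746 kept direction and side of the threshold, 88 lost the call, 21 gained one and 15 changed sign. Members called numbered 8 under isoflurane (5 to 8 with single libraries left out), 4 under propofol (3 to 5), 6 between the controls (6 to 7) and 5 between the septic groups (0 to 7, and 3 by limma-voom and by no filter). In the interaction they numbered 2 (0 to 6 with single libraries left out), 4 by DESeq2, and 0 by limma-voom, by no filter and after thinning. Genes called numbered 5183 under isoflurane (4145 to 5668 with single libraries left out), 4353 under propofol (3501 to 4291), 289 in the interaction (54 to 1615, 847 by DESeq2, 168 with no filter), 4468 between the controls (3715 to 4321, 2793 in 1 fit of 16) and 1982 between the septic groups (249 to 2867, 4099 in 1 fit of 16). With library totals alone, 38.29% of the propofol calls were rises, against 48.4% with TMM (1675 rises and 2700 falls). That share was 22.95% between the controls, against 49.8%, and 21.44% between the septic groups, against 55.1%. Changes of sign were in values near 0. With single libraries left out, Trib3 ranged from -0.11 to 0.45 under isoflurane and from -0.0033 to 0.53 between the septic groups, Sesn2 from -0.080 to 0.20 under propofol and from -0.18 to 0.11 between the septic groups, and between the controls Ddit3 reached 0.055 and Chac1 ranged from -0.35 to 0.013. Sesn2 was at -0.040 under propofol with library totals, and between the septic groups at 0.00059 with RLE factors and 0.00060 by DESeq2. The cause was not tested. With 4 pools a group, leaving out library 2, library 3 or any 1 control ended the call of Gdf15 under isoflurane.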
